A study of Homo sapiens with 2 samples.

Results

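The double-stranded RNA sensors of hTERT-RPE1 cells and the proteins that pass on their signal were examined as a set of 10 genes: RIGI, IFIH1, DHX58, TLR3, EIF2AK2, MAVS, TICAM1, TBK1, IKBKE and ADAR. They were chosen by name, with earlier results of these data known. Every probe set whose only gene symbol was 1 of them was used, which gave 22 probe sets of 41091 with a single symbol. The study compared 2 cultures of hTERT-RPE1, a human cell line from retinal pigment epithelium that was made immortal with telomerase and can form a primary cilium. One was transfected with a miR-129-3p oligo and the other with a control oligo, both with the lipid reagent RNAiMAX, and total RNA was taken at 72 h and read on Affymetrix 3' expression arrays. Both grew in medium with 10% fetal bovine serum and hygromycin B. The labels give neither the dose of the oligos nor whether they were single- or double-stranded, and no culture without an oligo or without the lipid reagent was analysed here. The study asks how miR-129-3p controls cilium assembly through CP110 and actin.

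Each group held 1 array, so the spread between replicates is unknown, no test was made, and each contrast is between these 2 arrays and not between the conditions at large. The arrays had median signals of 98.0 with miR-129-3p and 96.5 in control over 54613 probe sets. A gene or probe set is called measured if its signal, a linear intensity, was 100 or more on the brighter array. Differences were taken as log2(signal + 16) with miR-129-3p minus the same in control, a scale that understates the contrast of dim probe sets. Over 6179 genes with several measured probe sets, the differences of the probe sets of 1 gene had a pooled SD of 0.37, a spread within these arrays that leaves out the spread between cultures. Of 12 retinal and epithelial markers 8 were measured, among them OTX2, KRT8 and VIM, whereas RPE65, RLBP1, BEST1 and TYR stayed under 100 on both arrays. These markers differed both ways: MITF by -1.26, KRT18 by -0.96, PMEL by 0.92 and TERT by 1.09. By 2-fold, 1 was higher and 1 lower. The marker called higher, TERT, read 116 with miR-129-3p and 45.9 in control, at least 1.16-fold higher with the control set at 100. The part of these markers in the results below was not tested. Of 11 blood and immune markers on the array only CSF1R and HBB were measured, with summed signals of 547 with miR-129-3p and 399 in control. PTPRC, which marks white blood cells, read 41.0 with miR-129-3p and 36.9 in control.

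Cells take long double-stranded RNA in the cytosol as a sign of virus replication. RIG-I (RIGI) and MDA5 (IFIH1) are RNA helicases that signal through the mitochondrial adaptor MAVS, while TLR3 reads double-stranded RNA in endosomes and signals through the adaptor TRIF (TICAM1). Both adaptors lead to the kinases TBK1 and IKK-epsilon (IKBKE), which activate the factors IRF3 and IRF7 and so type I interferon genes. Interferon in turn raises the RNA of many sensors through the factor complex ISGF3, which binds an interferon-stimulated response element (ISRE) in their promoters.

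The oligo bears the name of a microRNA with 2 genomic copies, and the labels do not say which copy it follows. The mature sequences of both, from RefSeq on GRCh38.p14, are shown because they are what the name of the oligo refers to. The seed (bases 2 to 8) is in capitals.
hsa-miR-129-1-3p, chr7:128207920-128207941 (plus strand): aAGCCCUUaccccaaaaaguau
hsa-miR-129-2-3p, chr11:43581450-43581471 (plus strand): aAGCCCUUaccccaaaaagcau
Both are 22 bases long, differ at 1 base and have the same seed, AGCCCUU.

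The promoter windows of 5 of the 10 genes, from 250 bases before to 50 after the annotated start, are shown. They are those with a motif match and, with none, that of MAVS. The windows of TICAM1, IKBKE, TBK1 and ADAR held no match and are not shown, though TBK1 and ADAR were also higher by 2-fold or more. The sequences are from RefSeq on GRCh38.p14, read 5′ to 3′ along the gene. Capitals mark matches to the ISRE core (GAAA, 2 bases of any kind, GAAA), to the STAT-binding GAS core (TTC, 3 bases of any kind, GAA), or to the ISRE repeat with only 1 base between, which was added after these windows had been read. Matches were sought on both strands.
IFIH1, chr2:162318635-162318934 (minus strand): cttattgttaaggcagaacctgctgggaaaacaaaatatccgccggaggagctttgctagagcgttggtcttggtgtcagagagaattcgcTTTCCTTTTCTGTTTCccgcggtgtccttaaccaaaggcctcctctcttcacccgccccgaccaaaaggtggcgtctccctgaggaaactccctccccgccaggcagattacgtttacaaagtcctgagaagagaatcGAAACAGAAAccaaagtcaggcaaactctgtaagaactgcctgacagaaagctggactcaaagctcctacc
TLR3, chr4:186068906-186069205 (plus strand): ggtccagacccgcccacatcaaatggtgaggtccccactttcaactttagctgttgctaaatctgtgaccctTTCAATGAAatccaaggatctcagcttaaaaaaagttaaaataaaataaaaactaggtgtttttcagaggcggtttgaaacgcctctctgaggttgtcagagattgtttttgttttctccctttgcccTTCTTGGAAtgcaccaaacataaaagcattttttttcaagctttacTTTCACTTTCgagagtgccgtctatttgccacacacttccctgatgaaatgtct
EIF2AK2, chr2:37156931-37157230 (minus strand): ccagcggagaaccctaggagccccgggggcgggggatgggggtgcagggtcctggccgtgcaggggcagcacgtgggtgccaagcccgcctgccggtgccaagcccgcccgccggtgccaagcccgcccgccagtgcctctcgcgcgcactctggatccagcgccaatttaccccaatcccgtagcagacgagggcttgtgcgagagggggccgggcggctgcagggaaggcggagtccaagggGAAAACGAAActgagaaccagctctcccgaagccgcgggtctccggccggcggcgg
RIGI, chr9:32526147-32526446 (minus strand): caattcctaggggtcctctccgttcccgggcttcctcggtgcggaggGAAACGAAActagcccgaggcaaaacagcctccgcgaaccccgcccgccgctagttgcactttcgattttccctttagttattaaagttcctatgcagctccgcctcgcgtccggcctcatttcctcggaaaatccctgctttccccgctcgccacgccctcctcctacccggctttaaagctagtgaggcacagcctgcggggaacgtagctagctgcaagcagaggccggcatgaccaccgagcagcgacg
MAVS, chr20:3846584-3846883 (plus strand): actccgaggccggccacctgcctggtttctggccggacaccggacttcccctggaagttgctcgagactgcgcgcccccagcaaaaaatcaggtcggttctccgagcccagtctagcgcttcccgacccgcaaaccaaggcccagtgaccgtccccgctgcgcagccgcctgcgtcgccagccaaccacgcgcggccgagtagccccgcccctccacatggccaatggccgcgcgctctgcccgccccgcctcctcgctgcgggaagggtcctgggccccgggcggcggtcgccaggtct

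The ISRE core was found in the windows of 3 of the 9 genes with a window: IFIH1, TLR3 and EIF2AK2. Among 35116 promoter windows of this length, 3.57% held it, and by gene it was present for 4.38% of 27305. In IFIH1 it lay from base -21 to -12 relative to the start, as GAAACAGAAA, with 2 further matches on the other strand that overlap each other (TTTCCTTTTC and TTTCTGTTTC). In TLR3 (TTTCACTTTC, on the other strand) and in EIF2AK2 (GAAAACGAAA) the match spanned the start site. RIGI held no ISRE core but GAAACGAAA, with 1 base between the repeats, from base -203 to -195. A match of that kind is held by 3.12% of all windows and, by gene, 3.87%. The GAS core was found only in TLR3 among the 9 genes, with 2 matches, against 9.38% of all genes with a window and 7.66% of all windows. None of the 3 motifs lay in the windows of MAVS, TICAM1, TBK1 or IKBKE, nor in the 3 windows of ADAR, 2 of which overlap. The window of DHX58 was not analysed here. A match describes letters in a window and does not show that a factor binds there.

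**Figure D1:**
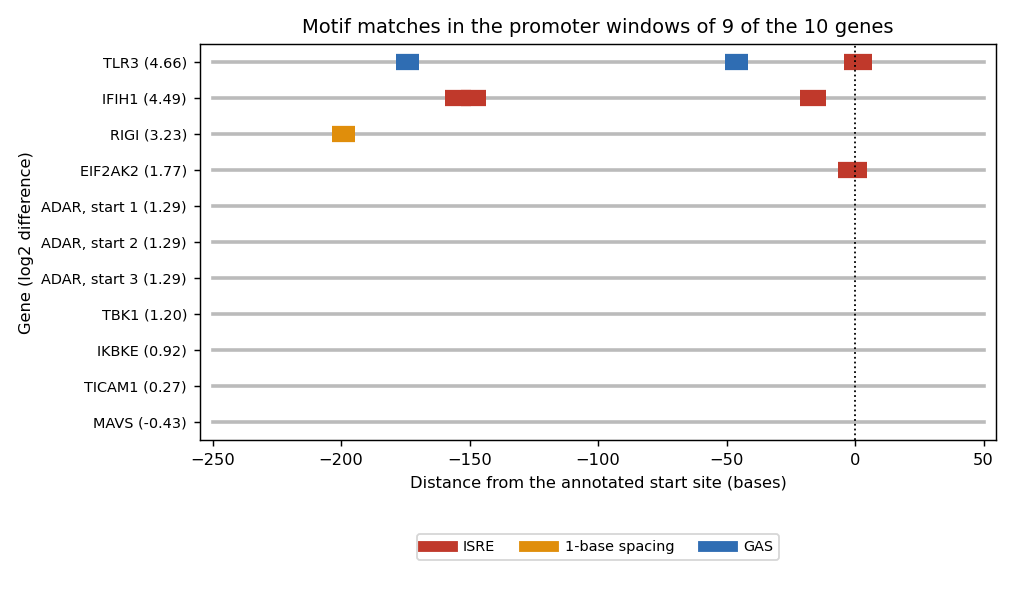
Matches to the ISRE core, to the same repeat with 1 base between and to the GAS core, by distance in bases from the annotated start (x axis), in the 11 promoter windows of 9 genes, ordered by the gene's log2 difference in parentheses. Matches lie in the windows of TLR3, IFIH1, RIGI and EIF2AK2; that of RIGI is only to the spacing of 1 base, added after the windows had been read, and DHX58 is not drawn.

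Most of the 10 genes, but not the adaptors, had higher signals on the miR-129-3p array. All 10 genes were measured, each by its brightest probe set, and 7 were higher by 2-fold or more, 0 lower by that much and 3 neither. Among all 12754 measured genes, 7.83% were higher and 4.56% lower by this limit. The 10 genes were chosen with earlier results of these data known, so these shares are given for scale and are not independent support. The median difference of the 10 was 1.53, against 0.03 for all measured genes. Of the 22 probe sets 21 were measured, and 14 of these passed 2-fold upward, where 7.55% of all 23707 measured probe sets did. With control signals under 100 set to 100, 2 of the 14, the dimmest of IFIH1 and of TLR3, no longer reached 2-fold, and 12 did. At least 4-fold higher were 4 of the 10 genes, against 2.38% of all genes. These 4 were the receptors RIGI, IFIH1, DHX58 and TLR3, while the 2 adaptors, MAVS and TICAM1, differed least from 0. In RNA from whole cultures, a change in the share of expressing cells and a change in RNA per cell cannot be told apart.

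**Figure D2:**
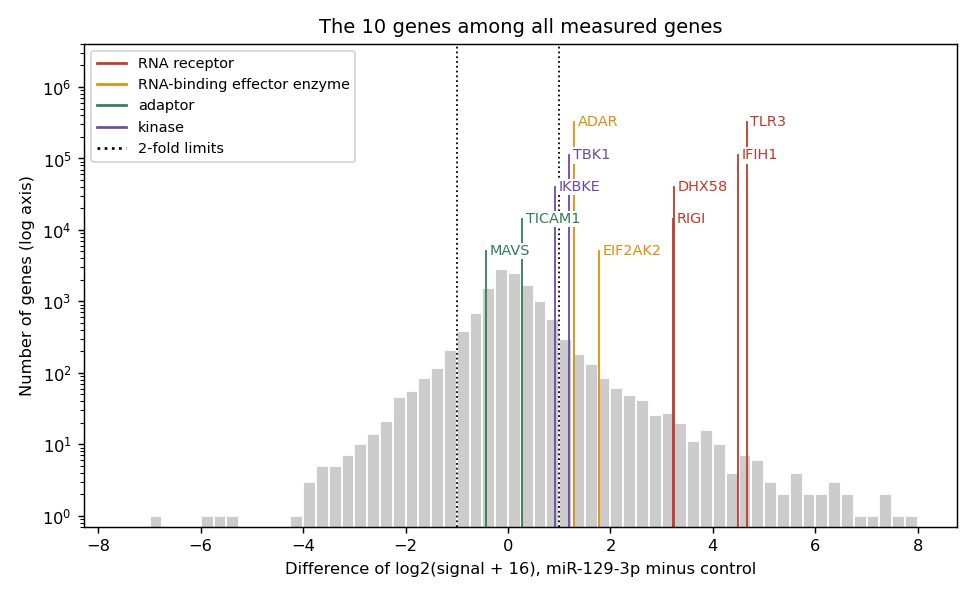
Differences of the 10 genes (coloured lines with names) over the histogram of all 12754 measured genes (grey bars, number of genes on a log axis), on the log2(signal + 16) scale, miR-129-3p minus control. The 4 receptors lie between 3.23 and 4.66, the adaptors at -0.43 and 0.27, and dotted lines mark 2-fold.

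The RIG-I-like receptors RIGI, IFIH1 and DHX58 were higher with miR-129-3p by ratios of 9.62 to 23.5, taking 1 probe set for each gene. RIGI, the receptor for RNA ends with a 5′ triphosphate, was read by 3 probe sets. On the probe set used for the gene it read 5127 with miR-129-3p and 533 in control, a 9.62-fold ratio and a difference of 3.23. Its other probe sets read 5563 and 4828 with miR-129-3p, against 438 and 289 in control, with differences of 3.62 and 3.99. All 3 probe sets were higher with miR-129-3p, and their differences spanned less than 1 unit of log2. The probe set used, the highest in mean log2 signal over both arrays, carries the ending _x_at, which the array maker gives to probe sets that may bind other transcripts, while the plain _at probe set gave the largest difference.

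IFIH1, which encodes MDA5, the receptor for long double-stranded RNA, had the largest difference but that of TLR3 by the brightest probe set of each gene. With the mean of all probe sets it was 2.96, below RIGI at 3.61 and DHX58 at 3.24. Its bright probe set read 7457 with miR-129-3p and 317 in control, a 23.5-fold ratio and a difference of 4.49, at rank 38 of 12754 genes counted from the highest. Its other probe sets read 290.4 and 139 with miR-129-3p, against 31.9 and 31.7 in control. With the control set at 100 they were at least 2.90-fold and at least 1.39-fold higher, so their contrast is known only as a bound. All 3 probe sets pointed the same way.

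DHX58 encodes LGP2, a helicase of the same family that has no signalling domains of its own and tunes the other receptors. Its single probe set read 2634 with miR-129-3p and 264 in control, a 9.99-fold ratio and a difference of 3.24. The differences of DHX58 and RIGI lay next to each other, at ranks 100 and 101 of all measured genes.

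TLR3, the endosomal receptor for double-stranded RNA, had the largest difference of the set by brightest probe sets, though with 64 added before log2 it was 4.20, below IFIH1 at 4.30. It read 3020.0 with miR-129-3p and 104 in control on its brightest probe set, a 28.9-fold ratio and a difference of 4.66, at rank 33. A further probe set read 1764 with miR-129-3p and 100.03 in control (difference 3.94), and the third read 185 with miR-129-3p and 13.3 in control, at least 1.85-fold higher with the control set at 100. The control signals of TLR3 thus stood close to or under the limit for measured genes, and its differences depended more on the added constant than those of the other members.

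**Figure D3:**
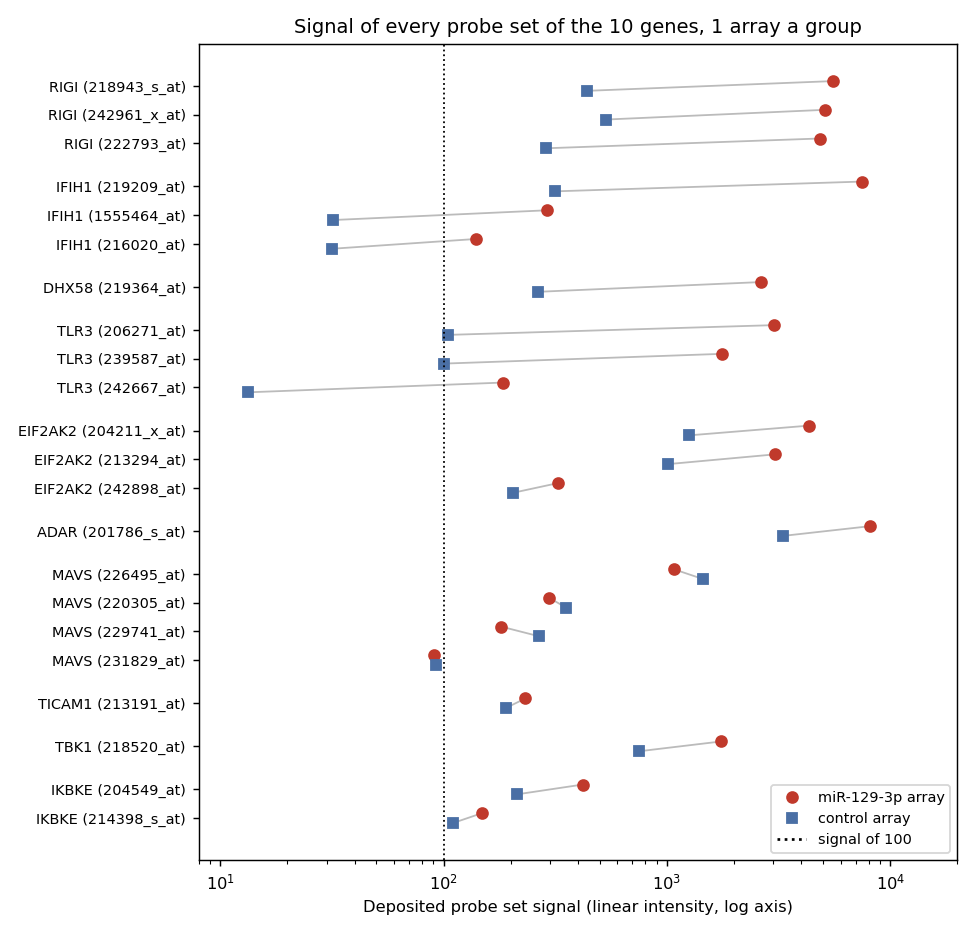
Deposited signal (linear intensity on a log axis) of each of the 22 probe sets of the 10 genes, with the miR-129-3p array as red circles drawn just above the control array as blue squares, and a dotted line at 100. All 10 probe sets of the 4 receptors have the circle to the right of the square, and the 4 probe sets of MAVS have it slightly to the left.

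By the probe set used for each gene, the RNA-binding enzymes were higher by less than the receptors. EIF2AK2 encodes PKR, a kinase that double-stranded RNA activates and that phosphorylates eIF2 alpha to stop translation. Its brightest probe set read 4325 with miR-129-3p and 1253 in control, a 3.45-fold ratio and a difference of 1.77. A second probe set read 3053 with miR-129-3p and 1013 in control (difference 1.58). The third and dimmest, at 326 with miR-129-3p and 204 in control, differed by 0.63 and did not reach 2-fold, so the probe sets of EIF2AK2 disagreed on the call. ADAR, which turns adenosine into inosine in double-stranded RNA and keeps the cell's own RNA from setting off MDA5 and PKR, read 8160 with miR-129-3p and 3316 in control, a 2.46-fold ratio and a difference of 1.29. ADAR has an interferon-inducible long and a constitutive short protein form, and its only probe set, of the kind shared by several transcripts (_s_at), gives a single value for the gene.

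The adaptors differed little between the arrays. MAVS read 1072 with miR-129-3p and 1447 in control on its brightest probe set, a 0.741-fold ratio and a difference of -0.43. Its other measured probe sets differed by -0.24 and -0.53, and the fourth, at 90.6 with miR-129-3p and 92.2 in control, was under 100 on both arrays. All 4 were below 0 and none reached 2-fold; the brightest lay just outside the SD of 0.37 between probe sets of a gene. TICAM1, which encodes TRIF, read 233 with miR-129-3p and 189.5 in control, a 1.23-fold ratio and a difference of 0.27 on its single probe set, within that SD.

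Of the 2 kinases downstream of the adaptors, 1 passed the 2-fold limit. TBK1 read 1747 with miR-129-3p and 753 in control on its single probe set, a 2.32-fold ratio and a difference of 1.20. IKBKE read 420.1 with miR-129-3p and 214 in control, with a difference of 0.92 that did not reach 2-fold. Its dimmer probe set read 148 with miR-129-3p and 110.4 in control, a difference of 0.38. The difference between TBK1 and IKBKE was smaller than the SD between probe sets of a gene, so they cannot be ordered. The same holds for RIGI and DHX58, for IFIH1 and TLR3, and for ADAR and TBK1. From the receptors to ADAR, by contrast, the gap in log2 difference by brightest probe sets was 1.93 or more. From the receptors to EIF2AK2 it was 1.45 or more. The spread between cultures is not covered by that SD, and the dimmest probe set of IFIH1 (1.70) lay below the brightest of EIF2AK2 (1.77). The SD is pooled over many genes, and some members spread more widely. Probe sets of IFIH1 ran from 1.70 to 4.49 and those of TLR3 from 2.78 to 4.66.

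Some relatives of the members were measured too, among them genes at the ends of the lists below. Among the eIF2 alpha kinases, EIF2AK1 differed by 0.54, EIF2AK4, named after its value was seen, by 0.18 and EIF2AK3, the kinase PERK of the endoplasmic reticulum, by -0.41, against 1.77 for EIF2AK2. ADARB1, the other active adenosine deaminase on double-stranded RNA, read 121 with miR-129-3p and 245 in control on its brighter measured probe set (-0.93) and 114.3 with miR-129-3p and 114.5 in control on the other. The classical IKK kinases CHUK and IKBKB, named after their values were seen, differed by 0.31 and 0.93. IKBKB and IKBKE thus stood side by side by brightest probe sets. The other measured probe set of IKBKB differed by 1.03 and that of IKBKE by 0.38. TLR1, a receptor for bacterial lipopeptides, read 345 with miR-129-3p and 41.9 in control, a difference of 2.64, or at least 3.45-fold higher with the control set at 100. TLR9, which reads DNA, read 106 with miR-129-3p and 132 in control, a difference of -0.28.

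Other genes of the pathway were taken as 7 lists that hold 131 genes, of which 105 passed the signal limit. By 2-fold or more, 20 of them were higher and 1 lower, and their median difference was 0.21. Beside these counts and those of each list below stand 7.83% higher and 4.56% lower among all 12754 measured genes. Among 16 measured cofactors and activating ligases of the RIG-I-like receptors, 3 were at least 2-fold higher and 0 lower, with a median of 0.20. They were DDX60, a helicase-like cofactor (3427 with miR-129-3p and 534 in control, difference 2.64), ZNFX1, a helicase-like RNA binder at mitochondria (1.81), and TRIM25, a ubiquitin ligase of RIG-I named after its values were seen (1.66). The second probe set of TRIM25 differed by -0.01. The counts rest on the brightest probe sets, and 2 further genes, named after their values were seen, had others beyond 2-fold. ZC3HAV1 differed by 0.77 on its brightest and by up to 2.94. G3BP1 differed by -0.11 on its brightest and by down to -1.10. PPP1CA and MEX3C stood at the other end of this list, both between -0.24 and -0.23.

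Of 19 measured genes of the signalling complexes between the adaptors and the interferon genes, 6 were at least 2-fold higher and 0 lower, with a median of 0.35. IRF7, a factor activated by TBK1 and IKK-epsilon, read 3634 with miR-129-3p and 201 in control, a difference of 4.07. IRF3, its constitutive relative, read 224 with miR-129-3p and 154 in control, a difference of 0.50. IFIT3, an interferon-induced protein that bridges MAVS and TBK1, had the largest difference of this list, 4.57. TRAF3, a ubiquitin ligase on both routes, differed by -0.78 on its brightest probe set and by -0.08 on the other, and TRAF5 by -0.51.

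Among 23 measured negative regulators 3 passed 2-fold upward and 0 downward (median 0.21): ISG15, a ubiquitin-like modifier, at 4.76, TRIM38, a ubiquitin ligase, at 1.76 (0.32 to 1.90 over its 4 probe sets) and TNFAIP3, the deubiquitinase A20 named after its values were seen, at 1.48. Without _x_at and _s_at probe sets 0 negative regulators passed, and 1 of the cofactors above did. ISG15, TRIM38, TNFAIP3, DDX60 and ZNFX1 have only probe sets of these kinds, so they had no value there and were not counted. PCBP2, which brings a ligase to MAVS, differed by -0.30 and MARCHF5, a mitochondrial ligase, by -0.26. The list of other binders of double-stranded RNA is not complete, and OASL (6.44) and DDX60 (2.64) stand in other lists. Among its 16 measured genes none reached 2-fold in either direction, with a median of -0.17. Values ran from ADARB1 at -0.93 and DICER1, the microRNA-processing nuclease, at -0.65, to ZFR at 0.28 and ZNF346 at 0.33. Of 16 other kinases and regulators of eIF2, 0 were at least 2-fold higher and 1 was lower (median 0.10). The lower gene was EIF2S3, a subunit of eIF2, at -1.06 on its brightest probe set. Its other probe sets differed by -0.72 and -0.66 and did not reach 2-fold. EIF2B5, the catalytic subunit of eIF2B, had the highest value of the eIF2 list, 0.64. With 7.83% of all measured genes higher and 4.56% lower, counts of 0 or 1 among 16 genes lie near these shares. By brightest probe sets RIGI, IFIH1, TLR3 and EIF2AK2, which also bind double-stranded RNA, lay above every measured member of both lists. Single dimmer probe sets overlapped. A probe set of ZNF346 read 170 with miR-129-3p and 73.7 in control, a difference of 1.05, and the dimmest of EIF2AK2 differed by 0.63.

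Of 10 measured genes among the other Toll-like receptors and their cofactors, 4 were at least 2-fold higher and 0 lower, with a median of 0.85. They were TLR1 (2.64), MYD88, the adaptor of most Toll-like receptors except TLR3 (1.86), and TLR2 and TLR4, both named after their values were seen (1.57 and 1.29). The control signals of TLR1 and TLR2 were under 100, so that TLR2 was at least 2.38-fold higher with the control set at 100, and with a mean signal of 200 or more required only 2 genes of the list were counted as higher. HSP90B1, a chaperone of these receptors, differed by -0.17. MYD88 read 2771 with miR-129-3p and 749 in control, whereas TICAM1, the adaptor of TLR3, was at 0.27 as given above.

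The list of interferon genes and direct IRF3 targets had the highest median, which rests on the targets, since IFNE was the only interferon gene measured. Among 7 measured members 6 passed 2-fold upward, and the median was 4.95; they include OASL, a protein that enhances RIG-I signalling (4412 with miR-129-3p and 35.1 in control), and CCL5, a chemokine (3580.4 with miR-129-3p and 39.5 in control). With the control set at 100, OASL was at least 44.1-fold and CCL5 at least 35.8-fold higher. The low end of the list was IFNE, an interferon of epithelia, at 0.17, the only interferon gene measured and named after its value was seen. IFIT3 and ISG15 are counted in this list as well as in those above. IFNB1, which encodes interferon beta, read 82.7 with miR-129-3p and 20.4 in control, a difference of 1.44. It was under 100 on both arrays and so was not counted. With no signal filter 8 genes of the list were called higher. The targets that passed 2-fold differed along with the receptors between the same 2 arrays, and their part in the levels of the receptors was not tested.

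**Figure D4:**
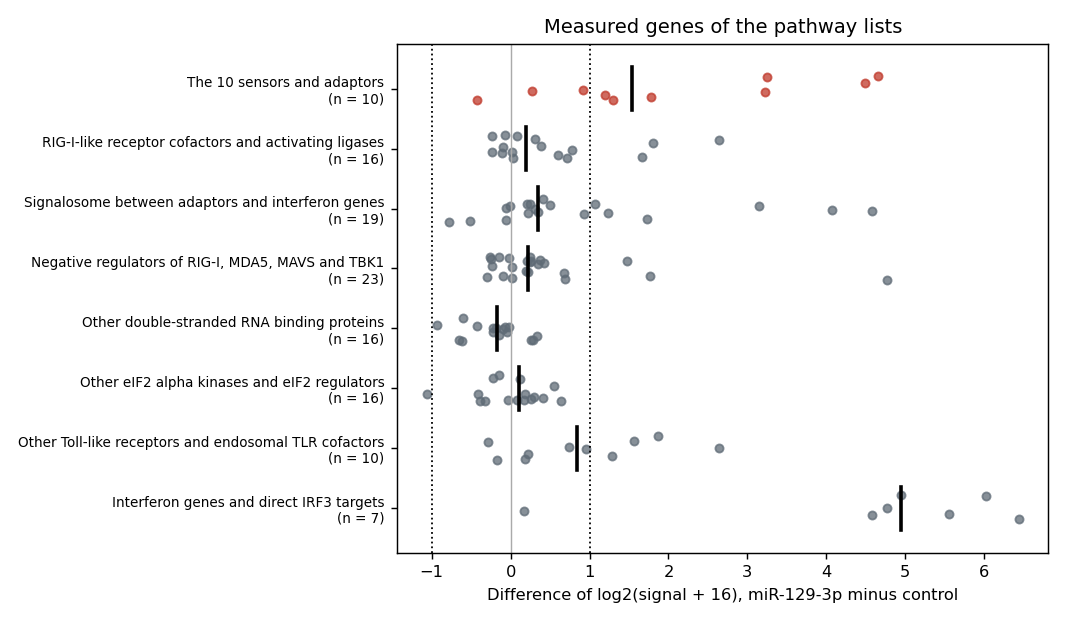
Differences of the measured genes of each list (points, spread vertically for view) on the log2(signal + 16) scale, miR-129-3p minus control, with the list median as a black bar and 2-fold limits as dotted lines. The 10 sensors and adaptors have a median of 1.53, the listed other binders of double-stranded RNA one of -0.17, and the interferon genes and direct IRF3 targets one of 4.95.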

How the data were processed

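Per the labels, biotin-labelled cRNA was made from 100 ng of total RNA and read on Affymetrix arrays, 1 for miR-129-3p and 1 for control. The authors deposited 1 linear intensity per probe set and array, from 1 to 20822. MAS5 and RMA are named, with no version, in the submitters' processing notes, which leave unsaid which of them gave these values; scaling between the arrays, background correction and detection calls are not given in the sources used here. Probe sets were named from the platform annotation: 41091 had 1 symbol, 1801 several and 11721 none listed. Of the probe sets with 1 symbol, 41037 had a gene ID that matched RefSeq on GRCh38.p14. A gene was represented by its probe set of highest mean log2(signal + 16), over 19775 genes, and counted as measured at 100 or more on the brighter array. Calls are at 2-fold, and no p-value was computed. "At least" folds set the control at 100. Named genes are the 10 members, IFNB1, IRF3, IRF7 and up to 2 genes at each end of a list. Members, lists and limits were chosen with earlier results of these data known. Likeness of pattern was not ranked, since over 2 arrays a pattern is 1 difference. Code was tested on simulated data. Alternatives were other added constants, a floor, scalings, probe set choices, filters and fold limits. The work used pandas 2.3.3 and numpy 2.4.6 under Python 3.11.15, with matplotlib 3.10.9 for figures and statsmodels 0.14.6 for loess.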

Additional observations from a re-analysis of the deposited data

How the results depend on the processing

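Over 12 alternatives 5 to 8 of the 10 genes were higher by the fold limit in use, with 0 lower; 8 came with a 1.5-fold and 5 with a 3-fold limit. Their median ran from 1.31 to 1.58. No member at 2-fold changed direction under the 8 alternatives for differences; by more than the SD between probe sets, RIGI moved to 3.61 with the mean of its probe sets and 3.99 without _x_at and _s_at probe sets, IFIH1 to 2.96, TLR3 to 3.79 and EIF2AK2 to 1.33 with the mean, and TLR3 to 4.20 with 64 added. ADAR has no value without its _s_at probe set. Pathway genes called higher numbered 13 without _x_at and _s_at probe sets, with 1 cofactor of the RIG-I-like receptors and 0 negative regulators left. ISG15, TRIM38, TNFAIP3, DDX60 and ZNFX1 have only probe sets of these kinds and so have no value under that setting. Pathway genes called lower numbered 2 with 1 added, with signals under 100 set to 100 or with quantile normalization. They numbered 0 with the mean of probe sets or the 3-fold limit, and 6 at 1.5-fold. At 1.5-fold, 6 cofactors, 5 negative regulators and 1 gene of the eIF2 list were higher. Of the Toll-like receptor list 2 were higher with a mean signal of 200 or more, and 2 at 3-fold. The causes were not tested. No paired analysis was possible because each group has 1 array, and no array could be left out. Signal near 100 limits TLR3 in control, where its fold rests on the added constant.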

Other observations

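The ISRE core lay in the promoter windows of 12.6% of the 788 genes with a window that passed 2-fold upward with miR-129-3p, of 4.27% of 468 at least 2-fold lower and of 3.06% of 9082 between these limits. For the same repeat with 1 base between, these shares were 8.25%, 3.63% and 3.13%, and for the GAS core 12.2%, 9.83% and 8.09%. The shares were not tested and count letters, not bound sites. Of the 6 listed interferon genes on the array, IFNE had signals of 527 with miR-129-3p and 467 in control, and IFNL1 read 67.95 with miR-129-3p and 50.2 in control (IFNE and IFNL1 were picked with their values in view).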
